A study of Homo sapiens with 5 samples.

Results

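TYR, TYRP1, DCT, PMEL, MLANA, OCA2, SLC45A2, SLC24A5, GPR143 and TRPM1 encode the melanin-forming enzymes, the melanosome matrix and membrane proteins of the pigment cell. They were chosen by name, and all 10 were found among the 31029 Ensembl genes listed in both count tables of the series. RNA-seq counts were available for 5 libraries of cells infected with shBPTF lentivirus, which targets the NURF subunit BPTF, and then selected with puromycin at 3 µg/ml for 5 days. There were 2 replicates of 501Mel, a human melanoma line that expresses MITF, and 3 replicates of Hermes 3A, an untransformed human melanocyte line. Every library therefore carried the knockdown. The study used more than 1 shBPTF construct, and the labels do not say which was used for each library. shControl libraries were not analysed here, so the comparison was between the lines after shBPTF and gives no effect of shBPTF itself. Each group was a single cell line, and Hermes 3A was grown with TPA, cholera toxin, stem cell factor and endothelin-1, which 501Mel was not. Transformation, line, medium and a response to shBPTF that differs between the lines therefore cannot be told apart.

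Melanin is made inside the melanosome, a lysosome-related organelle of the melanocyte. Tyrosinase oxidises tyrosine to dopaquinone, and the related enzymes TYRP1 and DCT act on later intermediates of the eumelanin branch. PMEL forms the fibrils on which melanin is laid down, and transporters set the pH and ion content that tyrosinase needs. The transcription factor MITF activates many of these genes through E-box sequences, among them the M-box that contains CATGTG.

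The promoters of the 3 tyrosinase family genes are shown because these genes share this sequence near their start, while their levels differed between the lines in opposite directions. RefSeq promoter windows on GRCh38.p14, from 250 bases before to 50 bases after an annotated start, were matched by symbol for 8 of the 10 genes, all but PMEL and SLC45A2, and DCT and TRPM1 had 2 starts each. The 250 bases before the start follow, 5′ to 3′ on the strand of the gene, with each CATGTG of either strand in capitals (it reads CACATG where it lies on the opposite strand). For DCT the start at base 94479682 is used.
TYR (chr11:89177625-89177874, plus strand): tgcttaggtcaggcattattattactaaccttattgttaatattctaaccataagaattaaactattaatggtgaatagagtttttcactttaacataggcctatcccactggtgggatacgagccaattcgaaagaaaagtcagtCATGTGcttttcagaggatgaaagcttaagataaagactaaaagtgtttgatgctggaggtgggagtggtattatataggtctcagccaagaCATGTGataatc
TYRP1 (chr9:12693135-12693384, plus strand): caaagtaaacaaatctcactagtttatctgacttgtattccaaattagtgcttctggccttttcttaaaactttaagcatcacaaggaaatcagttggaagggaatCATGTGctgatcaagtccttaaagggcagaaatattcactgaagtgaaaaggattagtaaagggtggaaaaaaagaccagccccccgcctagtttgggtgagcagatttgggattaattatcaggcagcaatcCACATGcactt
DCT (chr13:94479683-94479932, minus strand): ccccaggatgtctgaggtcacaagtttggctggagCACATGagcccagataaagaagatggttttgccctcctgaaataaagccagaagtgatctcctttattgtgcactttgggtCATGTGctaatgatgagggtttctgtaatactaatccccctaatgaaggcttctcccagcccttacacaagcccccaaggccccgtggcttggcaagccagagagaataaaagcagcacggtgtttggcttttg
CATGTG was found on either strand in 8 of these 10 windows and in 7 of the 8 genes, against 11.1% of all 35116 RefSeq windows of the same length. MLANA and the other DCT window held no match. With a T before it, as in the M-box, TCATGTG was present in the windows of TYR, TYRP1, DCT, SLC24A5 and GPR143, against 2.92% of all windows. CACGTG, the palindromic E-box, was in none of the windows of these genes, against 7.26% of all windows. With the T before it, CATGTG began at base -104 from the start of TYR, at -144 of TYRP1 and at -134 and -215 of DCT. The match at -215 of DCT lies on the opposite strand. Without the T, CATGTG began at base -12 of TYR and, on the opposite strand, at -11 of TYRP1. Bases are counted on the strand of the gene with -1 just before the start. For TRPM1, base -56 is counted from the start at base 31101725 and base -8 from the other start, at base 31161160. The matches of the other 4 genes are given with 9 bases on each side, read on the strand that spells CATGTG. The position of each match is counted from its start.
OCA2, base -153, gene strand: gggcggggcCATGTGggcagcttt
SLC24A5, base -15, opposite strand: aaactggatCATGTGaggagtctc
GPR143, base -61, opposite strand: gggcggcatCATGTGccctgggcc
GPR143, base -33, opposite strand: tgcctgggtCATGTGctgggcggg
TRPM1, base -56, opposite strand: catgaggagCATGTGagcacttgg
TRPM1, base -8, opposite strand: taggaggagCATGTGctggctttt
The same 6 letters thus stood before genes that were higher in 501Mel (DCT), higher in Hermes 3A (TYR, TYRP1, OCA2, SLC24A5) and not called (GPR143, TRPM1). A match describes the sequence only, and no binding was measured in these libraries.

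DCT and SLC45A2 were 117-fold and 150.5-fold higher in 501Mel than in Hermes 3A cells, and OCA2, PMEL, MLANA, TYRP1, SLC24A5 and TYR were higher in Hermes 3A cells. The libraries held 30073071 to 43032311 counts each. Hermes 3A replicate 1 stood apart from replicates 2 and 3, with a chi-square per gene of 96.1 and 100.8 against 21.5 between those. Between the 501Mel replicates the value was 72.9, so that these also lay well apart. Values are given as CPM, the count in a library scaled to 1000000 counts with TMM factors, and differences as log2 of 501Mel over Hermes 3A with their standard error. The difference was tested with edgeR's quasi-likelihood test on the 17918 genes that passed the filter on low counts, and a gene was called at a Benjamini-Hochberg adjusted p under 0.05 over all of them. All 10 genes passed the filter. Of these, 8 were called, 2 as higher in 501Mel and 6 as higher in Hermes 3A. Over all genes tested, 48.3% were called, 24.2% as higher in 501Mel and 24.1% as higher in Hermes 3A, so that a call alone sets none of these genes apart. Without Hermes 3A replicate 1 the numbers of pigment genes were 2 and 5. The differences toward Hermes 3A depended more on 501Mel replicate 1. Without it, those of TYR, TYRP1, PMEL and MLANA went from -0.91, -1.04, -1.39 and -1.22 to -0.56, -0.76, -1.07 and -0.84, as given below for each gene. With a log2 difference of at least 1 required as well, 2 pigment genes were higher in 501Mel and 4 in Hermes 3A, against 17.1% and 17% of all genes. The libraries of the lines did not overlap for 8 of the 10 genes, against 69.7% of all genes. The median difference of the 10 genes was -0.94 on the log2 scale, against 0.02 for all genes tested. In a population of cells, fewer cells with a transcript and less transcript per cell cannot be told apart.

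**Figure D1:**
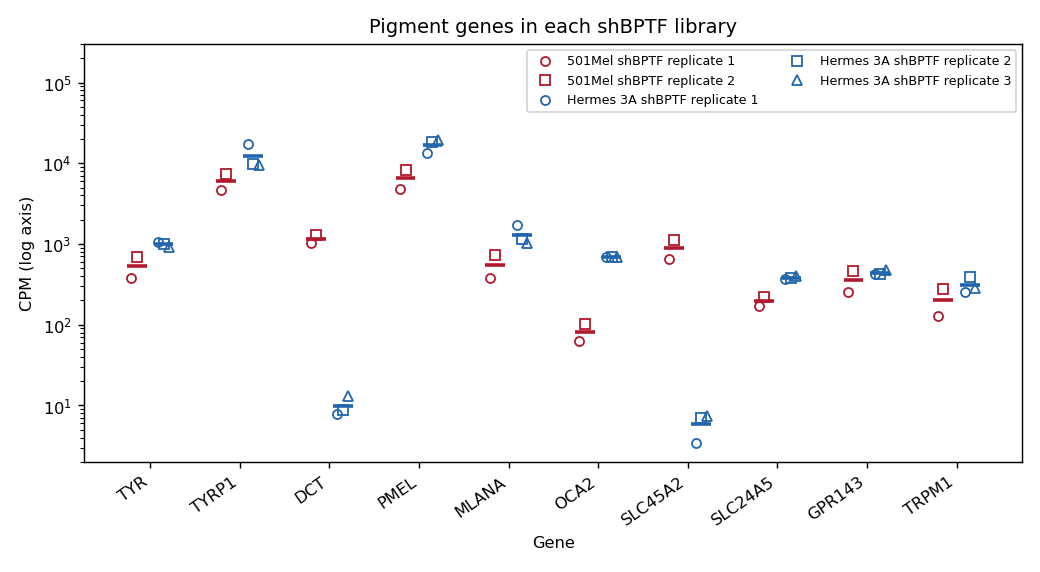
CPM of the 10 genes (log axis) in each shBPTF library, with red symbols for 501Mel (n = 2), blue symbols for Hermes 3A (n = 3) and a bar at the mean. The 2 lines do not overlap for 8 genes, and only DCT and SLC45A2 lie higher in 501Mel, with Hermes 3A values between 3.39 and 13.2 CPM.

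Among the enzymes, TYR (ENSG00000077498, GRCh38 chromosome 11, 89177452 to 89295759, 5 exons in its longest coding transcript) codes for tyrosinase, the rate-limiting enzyme of melanin synthesis. TYR was measured at 383 and 683 CPM in the 501Mel replicates and at 1072, 1010 and 915 CPM in the Hermes 3A replicates. All Hermes 3A libraries were above both 501Mel libraries, and the means were 533 ± 212 (SD, n = 2) and 999 ± 78.8 CPM (SD, n = 3). TYR was thus 1.87-fold higher in Hermes 3A, with a log2 difference of -0.91 (standard error 0.257, edgeR adjusted p = 0.0222). Without 501Mel replicate 1 this difference was -0.56 and was not called (edgeR adjusted p = 0.081). TYRL, a partial copy of TYR, had 3 to 9 counts per library against at least 17087 for TYR.

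TYRP1 (ENSG00000107165, chromosome 9, 12685439 to 12710290, 8 exons) codes for an enzyme of the eumelanin branch that also stabilises tyrosinase. It had 4639 and 7295 CPM in 501Mel and 17473, 9868 and 9463 CPM in Hermes 3A. The lines did not overlap, but Hermes 3A replicate 1 was 1.85 times the lowest Hermes 3A library. TYRP1 was 2.06-fold higher in Hermes 3A, with a log2 difference of -1.04 (standard error 0.358, edgeR adjusted p = 0.0456). This call was the least stable of the 8. TYRP1 was not called without 501Mel replicate 1 (log2 difference -0.76, edgeR adjusted p = 0.22), without 501Mel replicate 2 (-1.42, 0.0536), without Hermes 3A replicate 1 (-0.71, 0.0552) or without Hermes 3A replicate 3 (-1.24, 0.0545), nor with the replicate number as a block (-1.17, 0.0735).

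DCT (ENSG00000080166, chromosome 13, 94436808 to 94479682, 8 exons) codes for dopachrome tautomerase. DCT had 45970 and 49226 counts in 501Mel, or 1030 and 1279 CPM. In Hermes 3A it had 307, 361 and 393 counts, or 7.82, 8.68 and 13.2 CPM. DCT was thus 117-fold higher in 501Mel, with a log2 difference of 6.87 (standard error 0.286, edgeR adjusted p = 1.1e-05). This difference was larger than that of 97.2% of all genes tested, whichever the direction, and 173 genes, DCT included, were at least as far up in 501Mel. It kept its call under all 11 alternative fits, with log2 differences from 6.69 to 7.12.

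The 3 enzymes are paralogs, and their make-up differed between the lines. Levels of different genes were compared as CPM per kb of the longest coding transcript. Of the summed CPM per kb of the family, TYRP1 took 82.5% ± 0.65 in 501Mel (SD, n = 2) and 90.9% ± 2.15 in Hermes 3A (SD, n = 3). TYR took nearly the same share in both lines, 8.33% ± 0.809 and 9.02% ± 2.14, with overlapping replicates. DCT took 10.2% and 8.18% in the 501Mel libraries, and 0.0235%, 0.0443% and 0.0708% in the Hermes 3A libraries. These shares were not tested, since with 2 and 3 libraries the difference is already given by DCT alone. The shares are those left after a library step, described below, that removes abundant cDNA preferentially. They also depend on the length used. With the median length of the coding transcripts, TYRP1 was at 6843 CPM per kb in 501Mel and 14068 in Hermes 3A. TYR was then at 214 and 402 and DCT at 310 and 2.66, so that TYRP1 takes a larger share and TYR and DCT smaller ones.

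**Figure D2:**
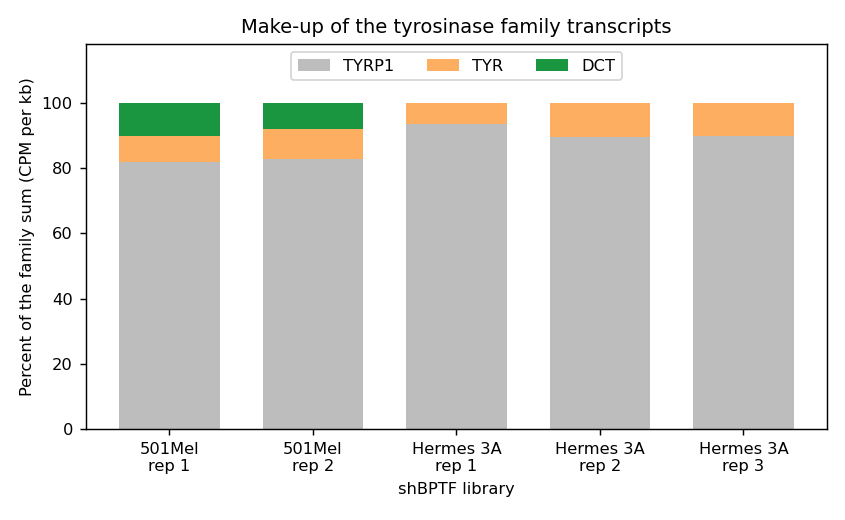
Share of TYRP1, TYR and DCT in their summed CPM per kb of the longest coding transcript (percent, stacked to the whole) in each shBPTF library. DCT makes up 8.18% to 10.2% of the sum in 501Mel and is too small to be seen in Hermes 3A, where it is at most 0.0708%.

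The matrix protein gene PMEL was, with TYRP1, among the most counted genes of every library. PMEL (ENSG00000185664, chromosome 12, 55954105 to 55973317, 11 exons) ranked 5 and 4 by counts in the 501Mel libraries, and 2, 1 and 1 in the Hermes 3A libraries, among 31029 genes. It had 4842 and 8178 CPM in 501Mel and 13283, 18469 and 19407 CPM in Hermes 3A. All Hermes 3A libraries were above both 501Mel libraries. PMEL was 2.62-fold higher in Hermes 3A, with a log2 difference of -1.39 (standard error 0.319, edgeR adjusted p = 0.00965). Without 501Mel replicate 1 it was -1.07 and was not called (edgeR adjusted p = 0.0614). CDK2 lies beside PMEL on the opposite strand and shares 2.28% of its exon bases, with 22722 to 45775 counts against at least 216131 for PMEL.

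MLANA (ENSG00000120215, chromosome 9, 5890802 to 5910606, 5 exons) codes for Melan-A, a membrane protein of early melanosomes that is needed for PMEL maturation. MLANA had 382 and 732 CPM in 501Mel and 1722, 1161 and 1019 CPM in Hermes 3A, without overlap. It was 2.33-fold higher in Hermes 3A, with a log2 difference of -1.22 (standard error 0.342, edgeR adjusted p = 0.0218). Without 501Mel replicate 1 the log2 difference was -0.84 and was not called (edgeR adjusted p = 0.102). PMEL and MLANA varied within Hermes 3A, in opposite directions. Replicate 1 had the lowest PMEL and the highest MLANA, and the ratio of PMEL to TYRP1 in CPM per kb was 0.786 in replicate 1 against 1.94 and 2.12 in replicates 2 and 3. In 501Mel this ratio was 1.08 and 1.16.

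Among the transporter genes, SLC45A2 was higher in 501Mel, and OCA2 and SLC24A5 were higher in Hermes 3A. SLC45A2 (ENSG00000164175, chromosome 5, 33944616 to 33984730, 6 exons) codes for a melanosomal sugar and proton transporter that is mutated in oculocutaneous albinism. SLC45A2 had 29374 and 43280 counts in 501Mel, or 658 and 1124 CPM. In Hermes 3A it had 133, 288 and 223 counts, or 3.39, 6.92 and 7.5 CPM. It was 150.5-fold higher in 501Mel, with a log2 difference of 7.23 (standard error 0.431, edgeR adjusted p = 5.75e-05), larger than that of 97.6% of all genes tested. By counts SLC45A2 ranked 106 and 48 in the 501Mel libraries, and between 10194 and 11442 in those of Hermes 3A. Its call held under all 11 alternative fits, with log2 differences from 6.78 to 7.56.

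OCA2 (ENSG00000104044, chromosome 15, 27754875 to 28099358, 24 exons) codes for the melanosomal anion channel protein P, which raises melanosomal pH. OCA2 had 63.6 and 101 CPM in 501Mel and 692, 687 and 695 CPM in Hermes 3A. The Hermes 3A replicates differed by a ratio of only 1.01 between the highest and the lowest, and all lay far above 501Mel. OCA2 was 8.41-fold higher in Hermes 3A, with a log2 difference of -3.07 (standard error 0.235, edgeR adjusted p = 0.000103), and kept its call under all 11 alternative fits (-3.46 to -2.79). SLC45A2 and OCA2 thus changed places. The ratio of SLC45A2 to OCA2 in CPM per kb was 12.1 and 13.0 in the 501Mel libraries, and 0.00573, 0.0118 and 0.0126 in the Hermes 3A libraries.

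SLC24A5 (ENSG00000188467, chromosome 15, 48120972 to 48142672, 2 exons in its longest coding transcript) codes for an ion exchanger of the pigment cell known for its part in human skin colour. SLC24A5 had 173 and 218 CPM in 501Mel and 365, 382 and 404 CPM in Hermes 3A. The lines did not overlap, and the highest replicate was 1.26 times the lowest in 501Mel and 1.11 times in Hermes 3A. SLC24A5 was 1.97-fold higher in Hermes 3A, with a log2 difference of -0.98 (standard error 0.16, edgeR adjusted p = 0.0024), and was called under all 11 alternative fits (-1.16 to -0.83). MYEF2, on the opposite strand, overlaps 32.9% of the exon bases of SLC24A5 and had 2038 to 3761 counts against 7712 to 15888 for SLC24A5. The strand setting of the counting is not given in the sources used here, and the part of these reads was not tested.

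The receptor and channel genes were the 2 of the 10 that were not called, and their lines overlapped. GPR143 (ENSG00000101850, chromosome X, 9725346 to 9786297, 9 exons) codes for the receptor of the melanosome membrane that is mutated in ocular albinism. GPR143 had 254 and 469 CPM in 501Mel and 425, 424 and 480 CPM in Hermes 3A. 501Mel replicate 1 was below all Hermes 3A libraries and replicate 2 lay among them. The log2 difference of GPR143 was -0.29, with a 95% interval from -0.88 to 0.30 (edgeR adjusted p = 0.373). It was -0.81 without 501Mel replicate 2, then called (edgeR adjusted p = 0.0214), and 0.073 without 501Mel replicate 1 (edgeR adjusted p = 0.784).

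TRPM1 (ENSG00000134160, chromosome 15, 31001061 to 31161273, 27 exons) codes for the cation channel melastatin. TRPM1 had 128 and 275 CPM in 501Mel and 256, 394 and 283 CPM in Hermes 3A. Its log2 difference was -0.62, with a 95% interval from -1.44 to 0.19 (edgeR adjusted p = 0.173), which includes a difference of more than 2-fold in favour of Hermes 3A. Without 501Mel replicate 2 it was -1.29 and was called (edgeR adjusted p = 0.0163). With the replicate number as a block it was -0.76 and was also called (edgeR adjusted p = 0.0204), but the labels do not say that equal numbers mark paired libraries.

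**Figure D3:**
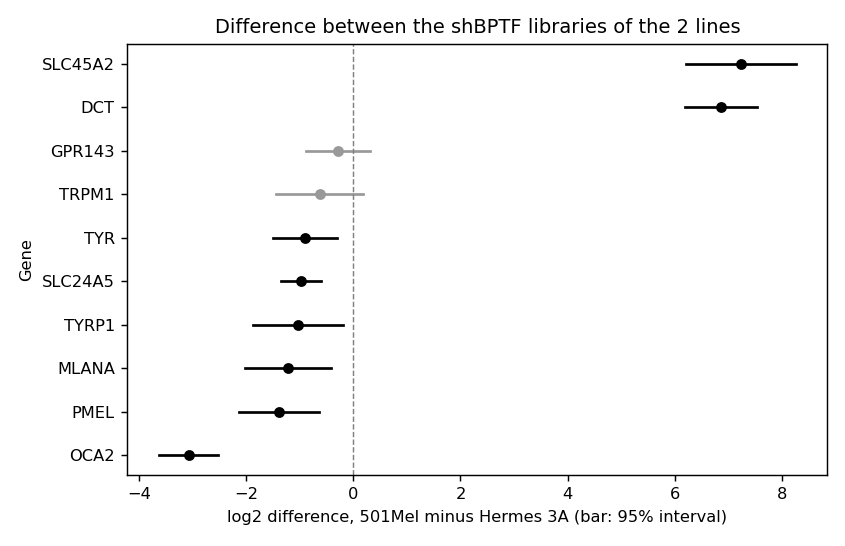
Fitted log2 difference of each gene, 501Mel minus Hermes 3A (horizontal axis), as a point with its 95% interval, black where the adjusted p is under 0.05 and grey otherwise. SLC45A2 (7.23) and DCT (6.87) stand on the positive side, 6 genes have intervals below 0, and those of GPR143 and TRPM1 include 0.

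The order of the genes within a line followed from these values. In CPM per kb, PMEL (2361 ± 856, SD, n = 2) and TYRP1 (2093 ± 659) led in 501Mel, and their replicates overlapped. A middle group of SLC45A2 (327 ± 121), MLANA (231 ± 102), DCT (228 ± 34.8), TYR (214 ± 85.4) and GPR143 (205 ± 86.2) followed, in which no neighbours differed beyond their replicates. SLC24A5 (65.4 ± 10.6) was below these, and TRPM1 (33.6 ± 17.3) and OCA2 (25.8 ± 8.27) came last and overlapped. In Hermes 3A, PMEL (6185 ± 1196, SD, n = 3) and TYRP1 (4303 ± 1583) again led and overlapped, followed by MLANA (538 ± 154) and TYR (402 ± 31.7), which overlapped. GPR143 (251 ± 18.1), OCA2 (217 ± 1.27), SLC24A5 (129 ± 6.58) and TRPM1 (51.8 ± 12.1) were each below their predecessor in every library. SLC45A2 (2.18 ± 0.818) and DCT (1.96 ± 0.573) came last and overlapped. From 501Mel to Hermes 3A, SLC45A2 moved from place 3 to 9 and DCT from place 5 to 10, and OCA2 from place 10 to 6. With the median length of the coding transcripts, TYRP1 stood above PMEL in 501Mel and GPR143 above TYR in both lines, and with union exon lengths OCA2 stood above GPR143 in Hermes 3A. The longest coding transcript of SLC24A5 has only 2 exons. With the median length SLC24A5 was at 103 CPM per kb in 501Mel and 202 in Hermes 3A, still at places 8 and 7.

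Together the 10 genes took 1.3% and 2.07% of all counts in the 501Mel libraries and 3.33%, 3.3% and 3.23% in the Hermes 3A libraries. The exact 95% binomial interval of each share was narrow, such as 1.2988% to 1.3055% for 501Mel replicate 1, and covers counting error only. The mean shares were 1.69% ± 0.543 (SD, n = 2) and 3.29% ± 0.049 (SD, n = 3). The sum was thus nearly constant among the Hermes 3A libraries although TYRP1, PMEL and MLANA differed between them.

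All 10 genes were higher in 501Mel replicate 2 than in replicate 1. The ratio of the replicates ranged from 1.24 for DCT to 2.15 for TRPM1, with a median of 1.7. Of the 13395 genes tested with a mean of at least 1 CPM in 501Mel, 47.9% were higher in replicate 2, the median ratio was 0.989, and 4.32% reached the median ratio of the pigment genes. MITF was also higher in replicate 2, with 840 against 677 CPM, a ratio of 1.24. Among the other pathway genes 10 of 14 of melanosome transport and 9 of 12 of pH, metal and cystine handling were higher in replicate 2, with median ratios of 1.37 and 1.28, while the biogenesis genes (14 of 24), receptors and signalling genes (5 of 9) and transcription regulators (8 of 14) had median ratios of 1.05, 1.03 and 1.06. The Hermes 3A libraries showed no such common shift, and 4 of the 10 genes were higher in replicate 1 than in the mean of replicates 2 and 3. Without 501Mel replicate 1 only OCA2 and SLC24A5 were called as higher in Hermes 3A, and without replicate 2 the number was 7.

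**Figure D4:**
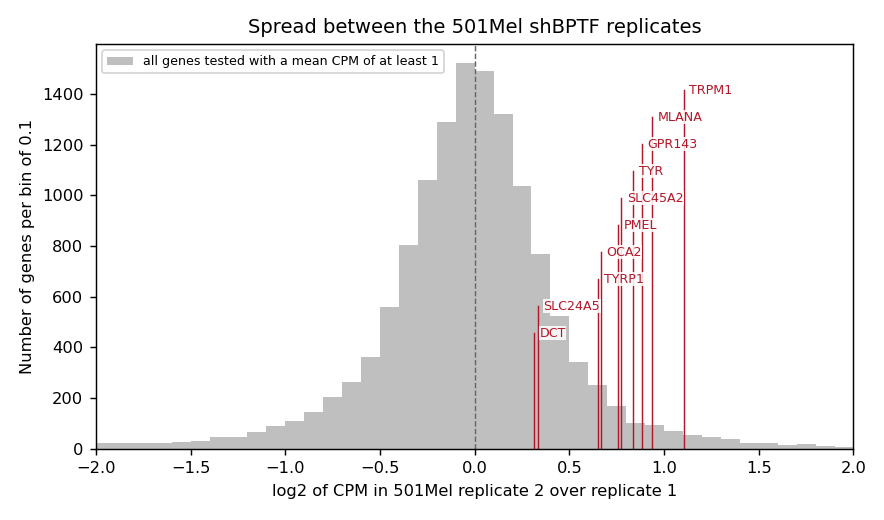
Number of genes (vertical axis) by the log2 ratio of CPM in 501Mel replicate 2 over replicate 1 (horizontal axis, bins of 0.1), with red lines for the 10 pigment genes, whose heights only separate the labels. All 10 lines lie to the right of 0, between ratios of 1.24 (DCT) and 2.15 (TRPM1), while the median of all genes is 0.989.

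The other genes of the pigment pathway were followed in 5 lists, with 76 different genes tested. Of these, 11 were called as higher in 501Mel and 33 as higher in Hermes 3A, or 57.9% in all, against 48.3% of all genes tested, and their median log2 difference was -0.31. Among 25 genes of melanosome biogenesis, which build and sort cargo to the organelle, 3 were higher in 501Mel and 9 in Hermes 3A, with a median log2 difference of -0.22. BACE2, a protease known to cleave PMEL, had 18 and 35 counts in 501Mel and 18374, 15612 and 11492 counts in Hermes 3A, which is a log2 difference of -9.30 (standard error 0.382, edgeR adjusted p = 1.1e-05). FURIN, a proprotein convertase that also cuts PMEL, was 5.00-fold higher in Hermes 3A, and LYST, the Chediak-Higashi trafficking protein, 4.67-fold. BLOC1S5 (2.2-fold), HPS4 (1.97-fold) and AP1M1 (1.48-fold), which code for subunits of trafficking complexes, were higher in 501Mel.

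Of 14 genes of melanosome transport, 2 were called as higher in 501Mel and 7 as higher in Hermes 3A (median log2 difference -0.47). The latter included MLPH (2.7-fold) and MYO5A (2.6-fold), the linker and motor that hold melanosomes to actin, RAB27A, which recruits them, and the autophagy receptor OPTN (3.08-fold). EXPH5, a RAB27 effector, was 10.9-fold higher in 501Mel but low in both lines, at 3.71 ± 0.208 CPM (SD, n = 2) and 0.34 ± 0.0766 CPM (SD, n = 3), and the kinesin gene KIF5B was 2.00-fold higher in 501Mel. Of 12 genes of melanosome pH, metal and cystine handling, 7 were called as higher in Hermes 3A (median log2 difference -0.59), led by TPCN2 (5.57-fold), a cation channel, MFSD12 (5.34-fold), a component of melanosomal cysteine import, and OSTM1 (2.95-fold), the partner of the chloride exchanger CLCN7. SLC31A1, the copper importer, was higher in 501Mel (1.85-fold).

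Among receptors and signalling genes, 10 of 12 were tested, with 1 called as higher in 501Mel and 3 as higher in Hermes 3A (median log2 difference -0.08). EDNRB, the endothelin receptor, was 2.57-fold higher in 501Mel. PRKAR1A, a regulatory subunit of protein kinase A, was 14.9-fold higher in Hermes 3A, MC1R, the melanocortin receptor, 5.56-fold and GNAS, which couples it to cyclic AMP synthesis, 1.56-fold. POMC had no counts in any library, and EDN3 was not listed in both tables. Among 15 transcription regulators, 4 were called as higher in 501Mel and 7 as higher in Hermes 3A (median log2 difference -0.04). SOX5 (2.81-fold), TFEB (2.78-fold) and LEF1 (1.95-fold) were higher in 501Mel. TBX2 (6.94-fold), a T-box repressor, and IRF4 (5.02-fold), a TYR regulator, were higher in Hermes 3A, as was SOX9, with at most 5 counts per 501Mel library and 26 to 85 per Hermes 3A library. MITF itself was not called, with 677 and 840 CPM in 501Mel and 682, 662 and 686 CPM in Hermes 3A (log2 difference 0.17, 95% interval -0.21 to 0.54, edgeR adjusted p = 0.422).

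**Figure D5:**
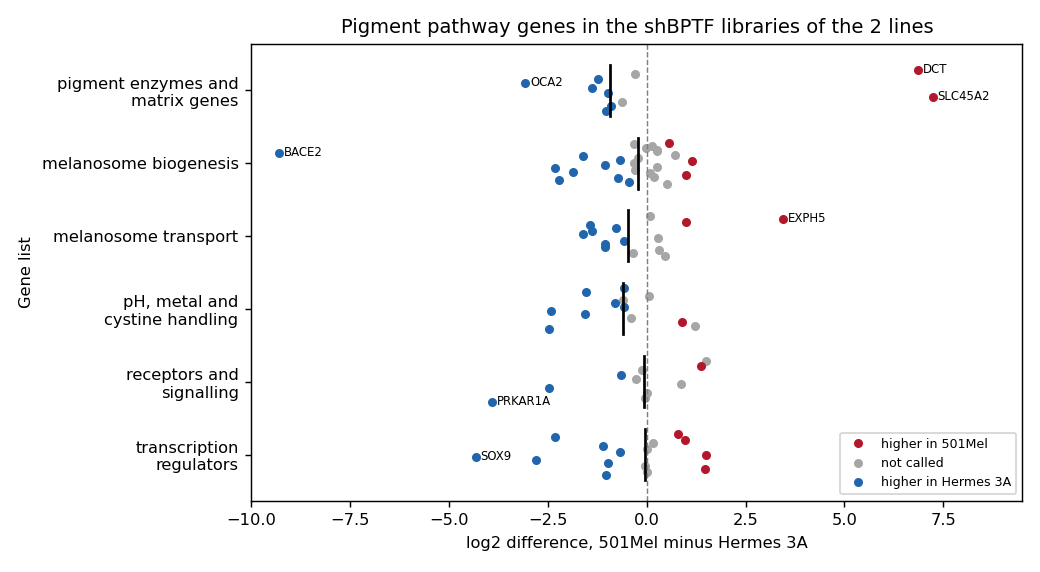
Fitted log2 difference, 501Mel minus Hermes 3A (horizontal axis), of each tested gene of the 10 pigment genes and the 5 pathway lists (rows), in red or blue where called as higher in 501Mel or Hermes 3A and grey otherwise, with a bar at the median of the list. DCT (6.87), SLC45A2 (7.23) and BACE2 (-9.30) lie farthest from 0, and the medians range from -0.94 to -0.04.

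BPTF, the target of the shRNA, had 63.4 and 56.9 CPM in 501Mel and 48.6, 50.7 and 54.8 CPM in Hermes 3A (log2 difference 0.23, edgeR adjusted p = 0.213), and without shControl libraries these values do not check the knockdown. Of the lineage markers, SOX10 was at 308 to 519 CPM over the 5 libraries, MITF at 662 to 840 and PAX3 at 65.6 to 158. CDH19 was at 38.9 to 199 CPM, MCAM at 35.9 to 138, ERBB3 at 4.6 to 205 and S100B at 2.24 to 20.5. MCAM was called as higher in 501Mel, SOX10, PAX3 and CDH19 as higher in Hermes 3A, and MITF, S100B and ERBB3 were not called. Counts in every library do not by themselves set the lineage, since the fibroblast markers COL1A2 and LUM also had them. Summed markers of fibroblasts were 3.4 to 16.6 CPM in 501Mel and 85 to 192 CPM in Hermes 3A, of which COL1A2 alone gave 73.7 to 189 CPM in Hermes 3A. By the mean, the next highest there was LUM, with 0.976 to 7.8 CPM. In Hermes 3A replicate 3, however, THY1 was above LUM, with 1.18 against 0.976 CPM. In 501Mel COL1A2 was at most 0.104 CPM, and the sum was mostly LUM (8.04 and 2.29 CPM) and COL1A1 (6.3 and 0.727 CPM). DCN and PDGFRB were at most 0.357 CPM in any library, and THY1 and COL3A1 at most 2.57 CPM. Summed endothelial markers were 0.627 to 0.779 and 9.08 to 13.7 CPM, nearly all of it KDR in Hermes 3A, and immune markers at most 0.577 CPM. Of 6 keratinocyte markers, 3 were listed in both tables and summed to 31.7 to 51 CPM, mostly KRT10. The part of these transcripts in the differences was not tested.

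The 5 genes outside the lists whose centred log2(CPM + 1) values over the 5 libraries lay nearest to the mean profile of DCT and SLC45A2 were MS4A15, FSTL5, APCDD1, IGFBP2 and ASB4, at distances of 0.776 to 1.03 on the log2 scale. Those nearest to the mean profile of the 6 genes higher in Hermes 3A were BRI3, CABLES1, CPPED1, SLC3A2 and TPP1, at 0.129 to 0.202. These were the nearest of 13794 genes over 5 libraries that form 2 groups, which describes the values and nothing more.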

How the data were processed

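Total RNA of the shBPTF cells was depleted of ribosomal RNA, and the libraries were normalised with a duplex-specific nuclease, which removes abundant cDNA preferentially. Levels of highly abundant transcripts such as PMEL and TYRP1, their shares and their differences between the lines are those left after this step. How far it changed them was not tested. The submitters' processing notes name CASAVA 1.8, TopHat 1.4.1, Bowtie 0.12.7 and the build hg19. The counting program, annotation and strand setting are not given in the sources used here. The authors deposited raw read counts per Ensembl gene, without normalization, in 1 table per library. The tables of 501Mel list 37259 genes and those of Hermes 3A 34033, of which 31029 were shared and used. Whether both lines were counted with the same annotation is not stated. A difference in counting would follow the lines and could not be told apart from them. The unshared genes held 0.0938% to 0.712% of a library. Total counts were 43032311 and 37856675 for 501Mel and 41653084, 40865034 and 30073071 for Hermes 3A, so that 3 counts correspond to 0.0697 to 0.0998 CPM.

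Names, positions and transcript lengths were taken from GENCODE 29 on GRCh38, which names 29317 of the shared genes. The deposited tables hold no coordinates. Libraries were grouped by the line and replicate number in their titles. Nothing states that replicates came from separate cultures, so that p-values measure the spread between these libraries only. Replicates differed beyond counting noise, with a chi-square per gene of at least 21.5. The lines were compared with edgeR 4.0.16 in R 4.3.3 (filterByExpr, TMM, robust quasi-likelihood fit, library totals over the full tables). The standard error is the log2 difference over the square root of F. DESeq2 1.42.0, other scalings, no filter, each library left out and a replicate block were tried as alternatives. The fits were tested on simulated data. The genes, lists and tests were chosen with earlier results of these data known. Named pathway genes were, per list and direction, the called genes with the largest difference, up to 3, with at least 10 counts in every library of the higher line. RAB27A, CLCN7 and overlapping genes were named after their values were seen. 1 lineage marker is not reported here. Supplementary values of the paper were not used.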

Additional observations from a re-analysis of the deposited data

How the results depend on the processing

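The numbers of genes and of pigment genes called were within 1.5 times of the main value under the other scalings, DESeq2's Wald test, no filter, the replicate block and a minimum log2 difference of 1. Over all genes 8658 were called, 7311 with the replicate block, and 6094 to 9320 with a library left out. In all 11 alternative fits DCT and SLC45A2 were called as higher in 501Mel and OCA2 and SLC24A5 as higher in Hermes 3A. The number of pigment genes called as higher in Hermes 3A was 6, and ranged from 2 to 7 with a library left out, with the lowest number without 501Mel replicate 1. A library left alone in its group is then assumed to vary like the others. The log2 difference of GPR143 ranged from -0.81 without 501Mel replicate 2 to 0.073 without 501Mel replicate 1, where it changed sign. With the minimum log2 difference of 1, 4 pigment genes were higher in Hermes 3A, without TYR and SLC24A5. The cause of these changes was not tested beyond leaving the libraries out. Both lines carry replicate numbers 1 and 2, but the labels do not tie equal numbers to each other. 501Mel had no replicate 3, so that Hermes 3A replicate 3 added nothing to the line difference in the block fit. Deviations of equal-numbered libraries from their line correlated across genes at 0.0995 and 0.133. With 2 501Mel libraries the deviation of 1 is the negative of the other, so that unequal numbers gave -0.0995 and -0.133 by construction. Against Hermes 3A replicate 3 the values were -0.0212 and 0.0212. The values are thus not separate measures of pairing. With the replicate block, TYRP1 was not called (log2 difference -1.17, edgeR adjusted p = 0.0735) and TRPM1 was called, so that the number of pigment genes called as higher in Hermes 3A stayed at 6, and the pathway genes called were 10 and 31 against 11 and 33. The order of levels per kb set apart 33 of 45 pairs of pigment genes in 501Mel and 42 in Hermes 3A, against 34 and 42 with union exon lengths and 39 and 43 with median coding lengths. Depth limits none of the 10 genes, which had at least 133 counts in each library.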

Other observations

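MIR211 lies in an intron of TRPM1 on the same strand. Reads on its hairpin locus were few, with 16 and 25 counts in 501Mel and 18, 46 and 8 counts in Hermes 3A, and these libraries do not measure the mature microRNA. AC009562.1, an antisense gene that shares 4.48% of the exon bases of TRPM1, had 29 and 38 counts in 501Mel and 29, 84 and 12 counts in Hermes 3A. In both lines the library with the most TRPM1 counts, 501Mel replicate 2 and Hermes 3A replicate 2, also had the most counts on these 2 genes.

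SLC7A11, the cystine and glutamate exchanger that feeds the pheomelanin branch, had 182 and 164 CPM in 501Mel. In Hermes 3A it had 152 CPM in replicate 1 against 27.5 and 41.4 CPM in replicates 2 and 3, and was not called between the lines (edgeR adjusted p = 0.173). Replicate 1 was the Hermes 3A library with the highest TYR, TYRP1 and MLANA and the lowest DCT, PMEL, SLC45A2, SLC24A5 and TRPM1. ERBB3, a receptor of the melanocyte lineage, had 86.8 CPM in 501Mel replicate 1 and 4.6 CPM in replicate 2, the replicate in which all 10 pigment genes were higher, and 44.7, 192 and 205 CPM in Hermes 3A. These values were picked after they were seen, and no test of their relation to the pigment genes was made.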
